A study of Arabidopsis thaliana with 12 samples.

Results

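The genes described here are 43 loci of Arabidopsis thaliana that encode proteins acting on the growing cell wall, out of 33602 genes measured. They comprise 20 expansins (14 alpha-expansins, EXPA; 2 beta-expansins, EXPB; 3 of the expansin-like A type, EXLA; 1 of the expansin-like B type, EXLB) and 23 xyloglucan endotransglucosylase/hydrolases (XTH). They are a list of named loci of these families and not the whole of them. The annotation names 27 further loci as expansins or XTHs, of which 4 reached the floor described next, so the counts below describe the listed loci. A mean normalized count of 10 over all libraries, the floor for testing, was reached by 38 of the 43, which were 16 of 20 expansins and 22 of 23 XTHs, against 18289 of all 33602 genes.

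The libraries came from whole rosettes of soil-grown plants at an age of 3 weeks, kept under 16 h of light and 8 h of dark, with 3 libraries for each of 4 genotypes. Plants of ceh1/eds16 carry both mutations, plants of ceh1 carry a mutation in HDS, plants of eds16 lack a working ICS1, and Col-0 is the wild type, which the labels also call the parent. HDS is the plastid enzyme that uses methyl-erythritol cyclodiphosphate, a stress signal that builds up in ceh1, and ICS1 makes most of the salicylic acid of a stressed plant. The ceh1 plant is known for high salicylic acid and small rosettes. Setting ceh1/eds16 against eds16, and ceh1 against Col-0, gives the effect of ceh1 without and with ICS1.

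Plant cells grow by yielding of the wall to turgor. Alpha-expansins loosen the contacts between cellulose and the polymers that coat it when the wall is acidified by plasma membrane proton pumps. The XTH enzymes cut xyloglucan, the main tether polymer of dicot primary walls, and most of them rejoin the cut end to another chain, so that they can strengthen, remodel or loosen a wall. Both families hold members that follow growth hormones, and XTH22 was first known as TCH4, a gene induced by touch.

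The libraries held between 4986863 and 18081979 reads in genes. Normalized counts of ICS1 were 21.01 ± 7.06 in ceh1/eds16, 666 ± 31.2 in ceh1, 15.2 ± 4.47 in eds16, and 245 ± 27.6 in Col-0 (SD, n = 3 in each genotype), so the libraries labelled eds16 and ceh1/eds16 held little of its transcript. HDS carries a point mutation, and its transcript level does not check the ceh1 label. Replicate 3 of ceh1/eds16 stood apart: set against each of the other ceh1/eds16 libraries, its chi-square per gene, which is near 1 for sampling noise alone, was 23.4 and 23.5, and in the other 10 pairs of libraries of 1 genotype it was 2.41 to 8.97. Of 7 flower markers all were lower in both ceh1 comparisons, and their summed level was 95.7 to 129.8 in ceh1/eds16, 37.9 to 113 in ceh1, 352 to 454 in eds16, and 188 to 269.9 in Col-0. AG, AP1 and AP3 reached the floor through the groups without ceh1. Their means were 1.84, 6.28 and 7.08 in ceh1/eds16 and 2.81, 7.58 and 6.61 in ceh1. All 7 vascular markers were lower too, with sums of 792 to 989 in ceh1/eds16, 792 to 1114 in ceh1, 1635 to 2069 in eds16, and 1992 to 2352 in Col-0. All 4 green leaf markers (RBCS1A, RCA, LHCB1.1 and CHLH) were present in every genotype and lower in both ceh1 comparisons. Of all genes tested, 20.2% were called lower in ceh1/eds16 against eds16 and 25% in ceh1 against Col-0. Of 6 root markers 5 were near 0 in every genotype, with EXPA7 at 0, and PYK10 was called higher in both ceh1 comparisons, at 796 ± 85.99 in ceh1/eds16, 808 ± 125 in ceh1, 205 ± 16.8 in eds16, and 153 ± 37.3 in Col-0. The part of these shifts in organ or tissue makeup in the results below was not tested, and in whole rosettes fewer cells of a type cannot be told apart from less RNA per cell.

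Of 16 expansins tested, 9 fell in ceh1 plants both without and with ICS1 and the other 7 did not fall by the test, while the XTHs split into a group that rose and a group that fell. In ceh1 against Col-0, 1 expansin rose and 9 fell of 16 tested, and 10 XTHs rose and 9 fell of 22 (limma on log2(normalized count + 1), Benjamini-Hochberg adjusted p under 0.05 over all 18289 genes tested). Of all genes tested, 50.2% were called in this comparison, 25.2% higher and 25% lower. In ceh1/eds16 against eds16, 9 expansins fell, 8 XTHs rose and 8 XTHs fell, where 42.3% of all genes were called, 22.1% higher and 20.2% lower. No listed expansin was called higher there in the main limma fit or by edgeR. At an unadjusted p under 0.05 in the main fit, EXLA1 alone among the listed expansins was higher. Some other limma settings called EXLA1 or EXLA3 higher there, as given below. The median log2 fold change of the expansins was -0.71 in ceh1/eds16 against eds16 and -0.44 in ceh1 against Col-0, and that of the XTHs was 0.02 and -0.02, beside 0.01 for all genes in each comparison.

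Changes of at least 2-fold ran in both directions among the XTHs. At least 2-fold changes among called genes were 6 higher and 7 lower of 22 XTHs in ceh1 against Col-0, where 9.96% and 7.05% of all genes met that rule, and 5 higher and 8 lower in ceh1/eds16 against eds16, where 10% and 7.49% did. For the expansins the 2-fold changes were all lower, 6 of 16 in ceh1 against Col-0 and 7 of 16 in ceh1/eds16 against eds16. Libraries that did not overlap put 9 XTHs higher and 8 lower in ceh1/eds16 against eds16, with 2 expansins higher and 9 lower, where 25.4% and 23.7% of all genes were. In ceh1 against Col-0 such XTHs numbered 9 in each direction and such expansins 2 higher and 10 lower, where 31.5% and 30.8% of all genes were. The 9 expansins that fell were the same loci in both comparisons. The 8 XTHs that rose and the 8 that fell in ceh1/eds16 against eds16 did so in ceh1 against Col-0 as well. How many of all genes were called the same way in both was not counted, so this overlap has no share of all genes beside it. The 2 comparisons share no library, but they test the same mutation in 1 model with 1 estimate of the spread. EXPA1, XTH5, XTH10 and XTH16 were called in ceh1 against Col-0 and not in ceh1/eds16 against eds16. When every library was scaled to the same total, the median of all genes moved up by 0.23 in ceh1 against Col-0 and by 0.11 in ceh1/eds16 against eds16, and the share of higher calls among all calls became 71.9% against 50.3%, and 63.9% against 52.2%. Under that scaling the counts were 4 expansins higher and 7 lower, and 11 XTHs higher and 8 lower, in ceh1 against Col-0. In ceh1/eds16 against eds16 they were 1 expansin higher and 9 lower, and 8 XTHs in each direction. Without ceh1/eds16 replicate 3, ceh1/eds16 against eds16 had 9 expansins lower, 8 XTHs higher and 10 XTHs lower, and ceh1 against Col-0, through the shared estimate of the spread, had 2 expansins higher.

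**Figure D1:**
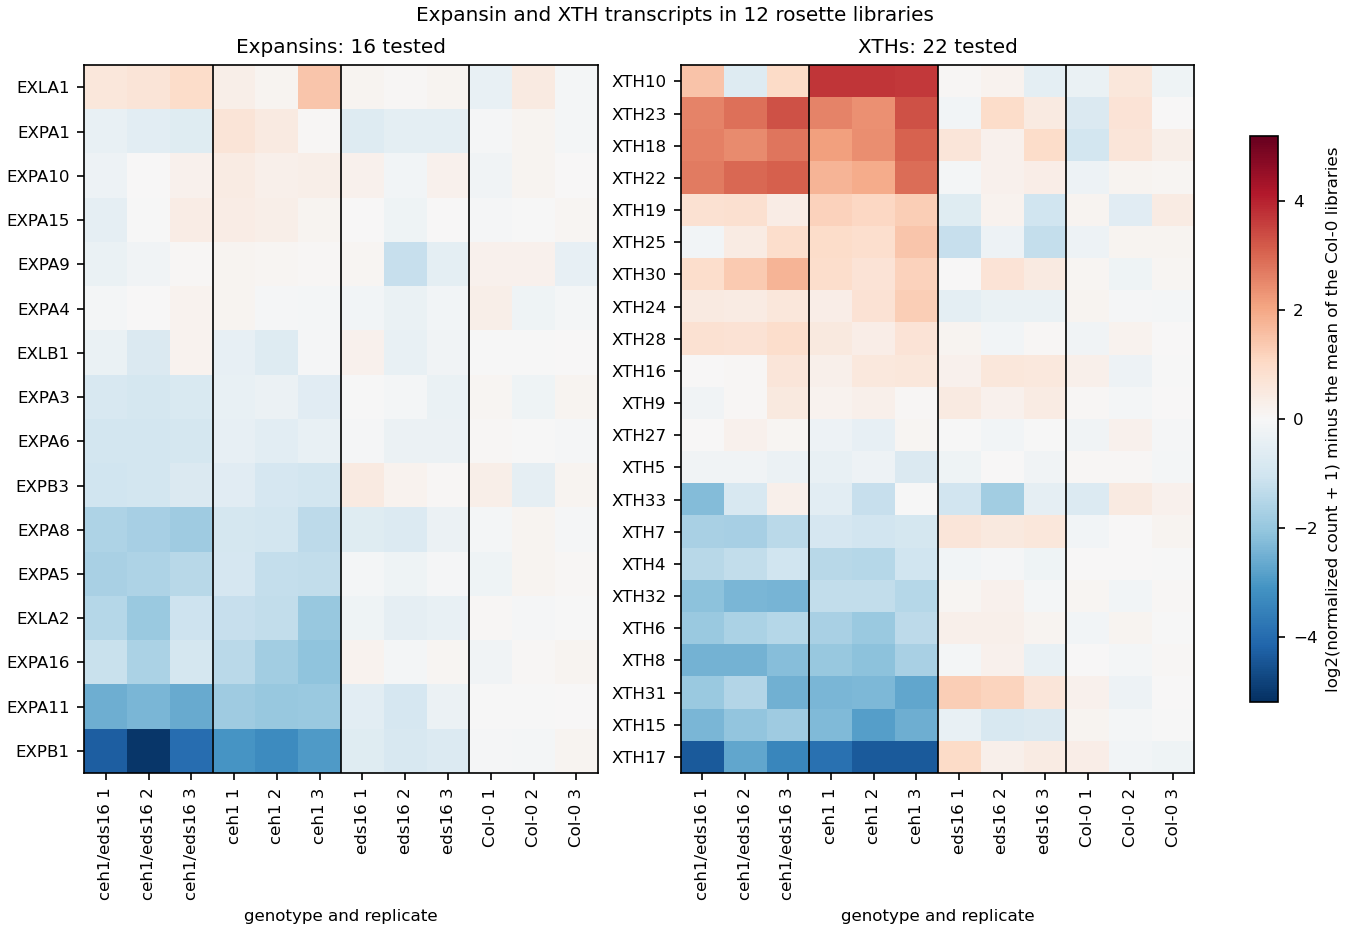
Level of each tested member in each of the 12 libraries, as log2(normalized count + 1) minus the mean of the 3 Col-0 libraries, with 16 expansins in the left panel and 22 XTHs in the right one, sorted by their change in ceh1 against Col-0. Red is above and blue below the Col-0 mean; 9 expansins form the blue block at the bottom left, and the XTH panel has a red block at the top and a blue block at the bottom.

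Among the listed expansins the largest change was that of EXPB1 (AT2G20750, chromosome 2, 8940833 to 8942706), a beta-expansin of the type related to grass pollen allergens. Its normalized counts were 4.45, 2.16 and 5.86 in ceh1/eds16, 11.5, 9.94 and 12.96 in ceh1, 67.2, 58.5 and 64.2 in eds16, against 102, 98.1 and 117 in Col-0. Every library with ceh1 was below every library without it, and the 3 ceh1/eds16 libraries were below the 3 ceh1 libraries. The log2 fold change was -3.71 ± 0.27 (SE; adjusted p = 9.60e-09) in ceh1/eds16 against eds16 and -3.10 ± 0.27 (SE; adjusted p = 1.21e-07) in ceh1 against Col-0, where the ratio of means was 9.22-fold lower. The other beta-expansin, EXPB3, also fell, with 106, 112 and 129.8 in ceh1/eds16, 144, 118 and 111 in ceh1, 304, 247 and 225 in eds16, against 269.9, 159 and 241 in Col-0. Its groups did not overlap in either comparison, and its log2 fold change was -1.15 and -0.82.

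Of 11 alpha-expansins tested, 6 fell in both comparisons. EXPA11 had 50.7, 57.2 and 48.8 in ceh1/eds16, 83.7, 75.5 and 79.7 in ceh1, 206, 164 and 247 in eds16, against 302, 299.8 and 306 in Col-0. Its log2 fold change was nearly the same without and with ICS1, -1.94 ± 0.15 (SE; adjusted p = 2.39e-08) in ceh1/eds16 against eds16 and -1.91 ± 0.15 (SE; adjusted p = 4.73e-08) in ceh1 against Col-0. EXPA16, a weakly expressed member, had 29.3, 20.5 and 35.1 in ceh1/eds16, 24.3, 18.5 and 14.95 in ceh1, 76.8, 62.5 and 71.5 in eds16, against 58.3, 69.6 and 73.4 in Col-0, and its log2 fold change was -1.31 (adjusted p = 0.000229) without ICS1 and -1.77 (adjusted p = 1.16e-05) with it. EXPA5, which is known for its part in growth driven by brassinosteroids, had 141, 148 and 169 in ceh1/eds16, 252, 193 and 190.4 in ceh1, 425, 388 and 437 in eds16, against 392, 509 and 480.3 in Col-0. The highest library with ceh1 held 252 and the lowest without it 388, and the log2 fold change was -1.45 (adjusted p = 3.14e-07) in ceh1/eds16 against eds16 and -1.12 (adjusted p = 7.16e-06) in ceh1 against Col-0.

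EXPA8 and EXPA6, both among the most abundant of the listed expansins per kb of transcript, were lower in every ceh1 comparison. EXPA8 had 341, 315 and 289 in ceh1/eds16, 562, 549.9 and 415 in ceh1, 676, 648 and 844 in eds16, against 992, 1156 and 1017 in Col-0, and its log2 fold change was -1.19 (adjusted p = 2.61e-06) without ICS1 and -1.06 (adjusted p = 1.07e-05) with it. EXPA6 had 518, 529 and 541 in ceh1/eds16, 753, 706 and 783 in ceh1, 964, 814 and 832 in eds16, against 1070.0, 1008 and 981 in Col-0. No library of EXPA8 or EXPA6 with ceh1 reached a library of its counterpart without ceh1, and the log2 fold change of EXPA6 was -0.71 and -0.45. EXPA3, the sixth to fall, averaged 169 ± 8.00 in ceh1/eds16, 229 ± 21.8 in ceh1, 276 ± 32.98 in eds16, and 308 ± 39.7 in Col-0; its call in ceh1 against Col-0 was lost without ceh1 replicate 3 (adjusted p = 0.0778), Col-0 replicate 1 (0.0632) or Col-0 replicate 3 (0.0765). In ceh1 against Col-0, EXPA3 and EXPA6 were not called with equal library totals.

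EXPA1 (AT1G69530, chromosome 1, 26141726 to 26143538), linked to stomatal opening, was the most abundant of the listed expansins per kb in all 4 genotypes. It was called higher in ceh1, a call that several libraries decided. Its normalized counts were 1768, 1583 and 1487 in ceh1/eds16, 3668, 3189.8 and 2403 in ceh1, 1425, 1609.7 and 1626 in eds16, against 2195, 2564 and 2153 in Col-0. The lowest ceh1 library lay within the range of Col-0, and the log2 fold change of 0.40 ± 0.14 (SE; adjusted p = 0.0255) in ceh1 against Col-0 was not called with equal upper quartiles (0.35, adjusted p = 0.0513), nor without ceh1 replicate 1 (0.27, adjusted p = 0.158), ceh1 replicate 2 (0.37, 0.0825), Col-0 replicate 1 (0.37, 0.0795) or Col-0 replicate 3 (0.36, 0.0871). In ceh1/eds16 against eds16 it was 0.05 ± 0.14 (SE; adjusted p = 0.796), with overlapping libraries. The difference between the effects, -0.35 ± 0.20 (SE; adjusted p = 0.322), was not called.

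The expansin-like genes, whose products resemble expansins in sequence but have no established wall-loosening activity, were mixed. EXLA2, which is known as a gene repressed by Botrytis infection, had 29.3, 21.6 and 39.05 in ceh1/eds16, 36.3, 34.4 and 20.9 in ceh1, 71.97, 59.9 and 63.2 in eds16, against 87.98, 80.3 and 83.7 in Col-0. It fell in both comparisons, with log2 fold changes of -1.13 and -1.47 and no overlap. EXLA1 had 295, 309.6 and 385 in ceh1/eds16, 244, 215 and 526 in ceh1, 219, 202 and 215 in eds16, against 149.8, 271 and 184 in Col-0, and its log2 fold change was 0.63 ± 0.26 (SE; adjusted p = 0.065) in ceh1/eds16 against eds16 and 0.63 ± 0.26 (SE; adjusted p = 0.0563) in ceh1 against Col-0 by limma, not called in either. With edgeR it was called higher in ceh1 against Col-0 (0.69, adjusted p = 0.0436), as it was with the replicate block (0.63, 0.0475) and with equal library totals (0.86, 0.0092). It was called higher in ceh1/eds16 against eds16 with equal library totals (0.74, adjusted p = 0.0266) and with only those groups in the fit (0.63, 0.00664). Replicate 3 of ceh1 held more than the other ceh1 libraries, and EXLA1 was called higher in ceh1 against Col-0 without ceh1 replicate 1 (adjusted p = 0.0422), ceh1 replicate 2 (0.0166), ceh1/eds16 replicate 3 (0.0321) or Col-0 replicate 2 (0.0201), and in ceh1/eds16 against eds16 without ceh1 replicate 2 (0.0473) or ceh1 replicate 3 (0.0104). EXLA1 overlaps AT3G45980 on the opposite strand by 22 bp. That gene had a mean normalized count of 1794, and whether strand was used in counting is not stated. EXLB1 and the alpha-expansins EXPA4, EXPA9, EXPA10 and EXPA15 were not called in any comparison of the main limma fit, with log2 fold changes from -0.39 to 0.32 in ceh1 against Col-0. With equal library totals EXPA10 (0.555, adjusted p = 0.00513) and EXPA15 (0.52, 0.0265) were called higher in ceh1 against Col-0, and EXPA10 also with only those groups in the fit (0.32, 0.0421).

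**Figure D2:**
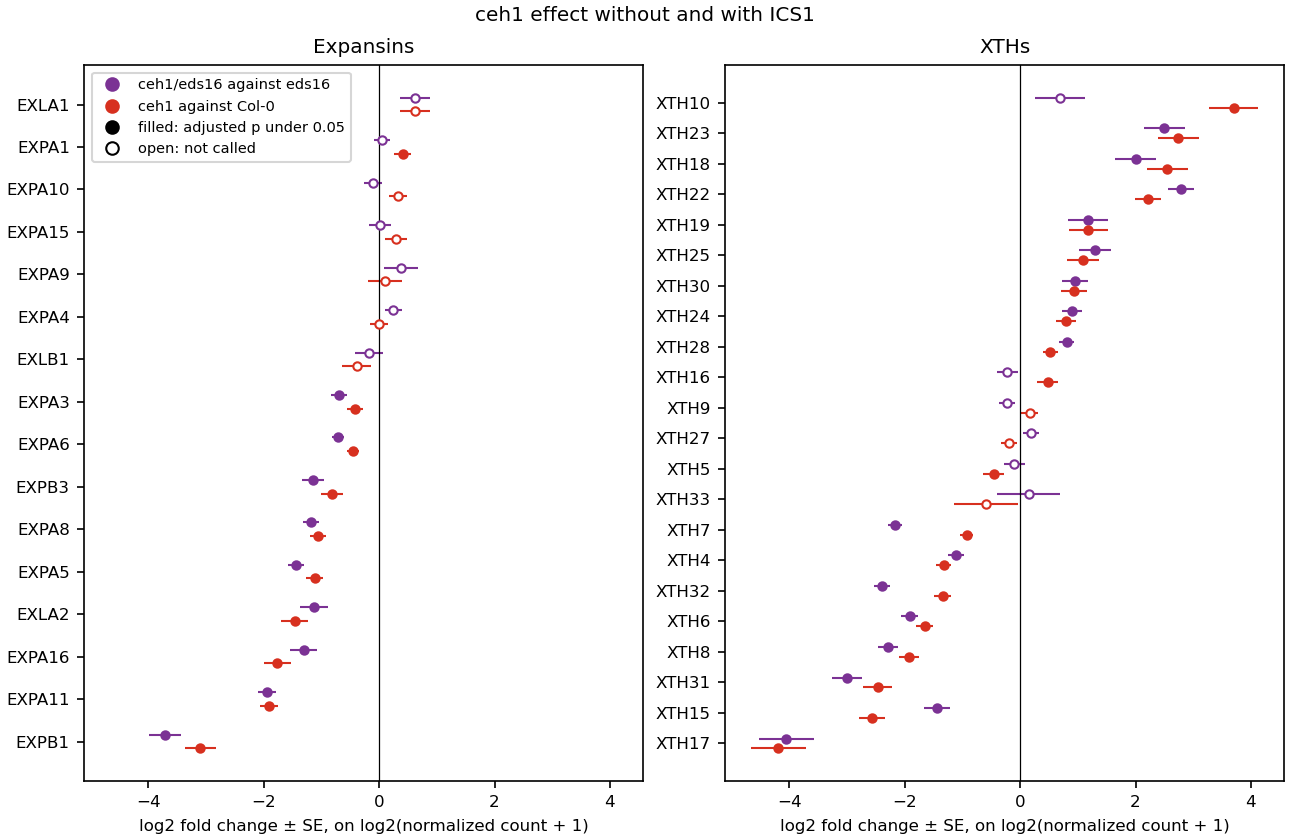
Log2 fold change with its SE, on log2(normalized count + 1), of each tested member in ceh1/eds16 against eds16 (purple) and in ceh1 against Col-0 (red), with expansins left and XTHs right; filled points were called at an adjusted p under 0.05. XTH10, XTH7 and XTH32 have their purple point far to the left of the red one, and XTH15 has it to the right.

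The 5 untested members had overall means under the floor of 10. With no floor, limma called EXPA2 higher in ceh1 against Col-0 (1.76, adjusted p = 0.00385), on 5, 8 and 1 reads in ceh1. It also called EXLA3 higher in ceh1/eds16 against eds16 (1.12, adjusted p = 0.0439), where EXLA3 had 11.6, 11.9 and 16.6 in ceh1/eds16. EXPA2, an expansin of germinating seeds, and XTH20 had 0 reads in all Col-0 and eds16 libraries, and XTH20 had a read in 1 of the 12 libraries. EXPA14 averaged 2.20 ± 1.26 in ceh1/eds16, 2.93 ± 0.423 in ceh1, 2.51 ± 1.41 in eds16, and 5.45 ± 3.01 in Col-0. EXPA20 averaged 7.85 ± 0.759 in ceh1/eds16, 6.53 ± 3.34 in ceh1, 5.74 ± 3.21 in eds16, and 8.95 ± 1.79 in Col-0, and EXLA3 averaged 13.3 ± 2.82 in ceh1/eds16, 6.24 ± 2.53 in ceh1, 5.64 ± 1.45 in eds16, and 5.05 ± 1.07 in Col-0. The overall means of EXPA20 and EXLA3 were the nearest under the floor of 10, while XTH33, a member anchored in the plasma membrane, lay just above it with 10.3 ± 8.55 in ceh1/eds16, 11.1 ± 4.67 in ceh1, 7.69 ± 3.70 in eds16, and 17.3 ± 7.05 in Col-0.

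Among XTHs that fell, XTH17 (AT1G65310, chromosome 1, 24257054 to 24258506) was all but absent from plants with ceh1. Its normalized counts were 0, 2.16 and 0.976 in ceh1/eds16, 0.412, 0 and 0 in ceh1, 40.3, 23.9 and 26.9 in eds16, against 24.97, 17.8 and 16.7 in Col-0. It had 3 reads in the 3 ceh1/eds16 libraries together and 1 read in those of ceh1, against 86 reads in eds16 and 44 in Col-0. After scaling, the ratio of read rates was 0.0313 in ceh1/eds16 against eds16 (95% exact interval 0.00633 to 0.0946) and 0.01003 in ceh1 against Col-0 (0.000248 to 0.0589), intervals that cover counting error only. Its log2 fold changes of -4.06 (adjusted p = 2.56e-06) and -4.20 (adjusted p = 2.12e-06) depend on the pseudocount. XTH17 entered the test through the groups where it was high. Its mean of 12.9 over all libraries reached the floor through eds16 (30.4) and Col-0 (19.85). The means were 1.04 in ceh1/eds16 and 0.137 in ceh1. XTH31, an enzyme known mainly for cutting xyloglucan rather than rejoining it, had 19.6, 25.9 and 12.7 in ceh1/eds16, 14.02, 14.6 and 10.96 in ceh1, 187, 173 and 119 in eds16, against 91.5, 64.2 and 78.5 in Col-0. No library with ceh1 overlapped one without it, and the log2 fold change was -3.01 ± 0.26 (SE; adjusted p = 6.06e-08) in ceh1/eds16 against eds16 and -2.47 ± 0.26 (SE; adjusted p = 8.23e-07) in ceh1 against Col-0. XTH8 had 43.6, 44.2 and 51.7 in ceh1/eds16, 62.7, 54.98 and 75.8 in ceh1, 229, 287 and 189.6 in eds16, against 251, 232 and 258 in Col-0, with log2 fold changes of -2.30 (adjusted p = 1.09e-08) and -1.93 (adjusted p = 1.29e-07).

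XTH15, known as a touch- and shade-induced member, had 16.9, 21.6 and 25.4 in ceh1/eds16, 18.1, 11.9 and 14.95 in ceh1, 71.01, 51.9 and 54.9 in eds16, against 102, 85.6 and 91.4 in Col-0. Its log2 fold change was -1.44 ± 0.23 (SE; adjusted p = 6.07e-05) in ceh1/eds16 against eds16 and -2.57 ± 0.23 (SE; adjusted p = 1.20e-07) in ceh1 against Col-0. The difference between these effects, 1.13 ± 0.32 (SE; adjusted p = 0.0524), missed the threshold; it was called without ceh1/eds16 replicate 1 (1.28, adjusted p = 0.0387) or ceh1/eds16 replicate 3 (1.00, 0.0437). XTH15 shares 382 bp with AT4G14120 on the opposite strand, which had a mean normalized count of 18.6, so its reads cannot be assigned with certainty. XTH6 and XTH4, among the most abundant XTHs per kb of transcript in Col-0, also fell in both comparisons. XTH6 averaged 760.3 ± 114 in ceh1/eds16, 781 ± 164 in ceh1, 2848 ± 167 in eds16, and 2439.9 ± 246 in Col-0, and XTH4 averaged 848 ± 123 in ceh1/eds16, 808 ± 152 in ceh1, 1828 ± 110.1 in eds16, and 2007 ± 12.7 in Col-0. Groups with ceh1 did not overlap those without it for either gene. XTH7 and XTH32 complete the 8 that fell in both and are described with the genes that differed by ICS1.

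XTH5, with 48.7 ± 2.53 in ceh1/eds16, 41.5 ± 6.83 in ceh1, 52.4 ± 5.47 in eds16, and 57.04 ± 3.69 in Col-0, fell in ceh1 against Col-0 (-0.46 ± 0.18 (SE; adjusted p = 0.0474)). That call was lost without any one of 9 of the 12 libraries, ceh1 replicate 2 and replicate 3 of ceh1/eds16 and replicate 2 of eds16 being the exceptions, with log2 fold changes of -0.51 to -0.32 and an adjusted p of 0.0537 to 0.198. It was also lost with edgeR (-0.44, adjusted p = 0.0543), the replicate block (-0.46, 0.0567), only those groups in the fit (-0.46, 0.0585), no floor (-0.46, 0.0891) and equal library totals (-0.23, 0.329). XTH9, XTH27 and XTH33 were not called in either comparison. XTH9, which acts in shoot cell elongation, averaged 2062 ± 515 in ceh1/eds16, 2068 ± 156 in ceh1, 2377 ± 205 in eds16, and 1844 ± 107 in Col-0, and XTH27, a gene of leaf vein cells, averaged 1739 ± 137 in ceh1/eds16, 1406 ± 268 in ceh1, 1526 ± 80.5 in eds16, and 1608 ± 234 in Col-0. Without ceh1 replicate 3, XTH27 was called lower in ceh1 against Col-0 (-0.35, adjusted p = 0.0494), and without ceh1/eds16 replicate 3, XTH9 was called lower in ceh1/eds16 against eds16 (-0.42, 0.00497). With equal library totals XTH9 was called higher in ceh1 against Col-0 (0.40, adjusted p = 0.0173).

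The XTHs that rose in both comparisons were XTH18, XTH19, XTH22, XTH23, XTH24, XTH25, XTH28 and XTH30. XTH22 (AT5G57560, chromosome 5, 23307006 to 23308680) had 1515, 1847 and 1978 in ceh1/eds16, 779, 886 and 1740.5 in ceh1, 214, 265 and 290.1 in eds16, against 193, 255 and 245 in Col-0. Replicate 3 of ceh1 was close to the double mutant and the other 2 ceh1 libraries were lower, but all libraries with ceh1 stood above all libraries without it. The log2 fold change was 2.79 ± 0.23 (SE; adjusted p = 3.00e-08) in ceh1/eds16 against eds16, a 6.95-fold higher mean, and 2.21 ± 0.23 (SE; adjusted p = 6.58e-07) in ceh1 against Col-0, a 4.92-fold higher mean. XTH23 (AT4G25810, chromosome 4, 13128394 to 13129927), which the annotation lists as XTR6, had 80.9, 98.2 and 134 in ceh1/eds16, 80.4, 68.9 and 133 in ceh1, 11.5, 25.3 and 17.6 in eds16, against 7.13, 21.4 and 12.9 in Col-0. Its log2 fold change was 2.49 (adjusted p = 2.17e-05) without ICS1 and 2.74 (adjusted p = 8.90e-06) with it, and its ceh1 groups did not overlap the others.

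TCH2 and TCH3, calmodulin-like genes that were found in the same touch screen as TCH4, rose as well. TCH3 averaged 9054 ± 248 in ceh1/eds16, 8046 ± 1137 in ceh1, 961 ± 152 in eds16, and 1573 ± 358 in Col-0, and TCH2 averaged 875 ± 282 in ceh1/eds16, 609.8 ± 139 in ceh1, 192 ± 19.7 in eds16, and 163 ± 13.1 in Col-0. XTH22 and XTH23 are shown with their upstream sequence because both rose in both comparisons and each holds, within 250 bases of its annotated start, 1 copy of the W-box core (TTGAC, or GTCAA on the other strand), the letters bound by WRKY factors. The sequences are from RefSeq TAIR10.1, run 5′ to 3′ on the strand of the gene and end at the base before the start, and the capitals mark the W-box core.
XTH22: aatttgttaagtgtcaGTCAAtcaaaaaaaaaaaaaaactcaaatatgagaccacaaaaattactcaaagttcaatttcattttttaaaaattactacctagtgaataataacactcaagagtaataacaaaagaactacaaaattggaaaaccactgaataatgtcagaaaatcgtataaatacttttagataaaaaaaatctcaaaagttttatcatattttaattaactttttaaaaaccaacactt
XTH23: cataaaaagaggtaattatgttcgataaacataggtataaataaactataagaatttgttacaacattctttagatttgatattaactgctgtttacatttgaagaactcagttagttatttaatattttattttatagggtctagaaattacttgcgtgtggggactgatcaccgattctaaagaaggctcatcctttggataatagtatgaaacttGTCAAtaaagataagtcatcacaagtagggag
The XTH22 window is chr5:23308681-23308930 on the minus strand and the match begins 234 bases before the start. The XTH23 window is chr4:13128144-13128393 on the plus strand and the match begins 32 bases before the start. The core is short: 44.7% of the windows of 18271 tested genes held it, as did 5 of 20 expansins and 12 of 23 XTHs. Of those 12, 5 rose in both comparisons (XTH18, XTH19, XTH22, XTH23 and XTH30), 6 fell in ceh1 against Col-0 (XTH5, XTH6, XTH8, XTH15, XTH31 and XTH32), and XTH20 was not tested. All of the 6 but XTH5 fell in ceh1/eds16 against eds16 as well. The letters thus occurred both in XTHs that rose and in XTHs that fell, and how they bear on the levels was not tested. A match describes the letters and does not show binding.

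XTH18 and XTH19 stand side by side on chromosome 4 and belong with XTH17 and XTH20 to a small clade of similar genes. XTH18 (AT4G30280, chromosome 4, 14825757 to 14827211) had 67.6, 59.3 and 75.2 in ceh1/eds16, 48.3, 58.3 and 92.7 in ceh1, 16.3, 11.97 and 20.7 in eds16, against 4.76, 16.1 and 12.9 in Col-0. Its groups with ceh1 were above the others in all libraries, and the log2 fold change was 2.00 ± 0.35 (SE; adjusted p = 0.000191) without ICS1 and 2.55 ± 0.35 (SE; adjusted p = 1.78e-05) with it. XTH19 averaged 23.1 ± 3.98 in ceh1/eds16, 32.8 ± 2.22 in ceh1, 10.3 ± 5.08 in eds16, and 14.6 ± 5.25 in Col-0, and its log2 fold change was 1.18 (adjusted p = 0.00975) and 1.18 (adjusted p = 0.00856). The call of XTH19 in ceh1/eds16 against eds16 was lost without eds16 replicate 3 (0.90, adjusted p = 0.0538). Over 903 pairs of members, the longest identical run shared by 2 mature transcripts was the 68 bases of XTH18 and XTH19, and XTH17 and XTH19 shared 51, so reads shorter than these could be shared within the clade. EXLA1 and EXLA3 shared 57. Read length and the treatment of such reads are not stated.

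XTH17 and XTH18 moved in opposite directions with ceh1. Their upstream sequences are shown because they are nearly the same close to the start, and that of XTH19 is shown beside them. Capitals mark the W-box core and the rapid stress response element (CGCGTT, or AACGCG on the other strand), the letters of a motif bound by calmodulin-binding CAMTA factors.
XTH17: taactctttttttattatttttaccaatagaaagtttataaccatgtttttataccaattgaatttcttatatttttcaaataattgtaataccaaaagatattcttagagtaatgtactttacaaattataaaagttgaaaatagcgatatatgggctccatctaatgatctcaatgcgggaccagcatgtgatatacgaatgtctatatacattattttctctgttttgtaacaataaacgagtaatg
XTH18: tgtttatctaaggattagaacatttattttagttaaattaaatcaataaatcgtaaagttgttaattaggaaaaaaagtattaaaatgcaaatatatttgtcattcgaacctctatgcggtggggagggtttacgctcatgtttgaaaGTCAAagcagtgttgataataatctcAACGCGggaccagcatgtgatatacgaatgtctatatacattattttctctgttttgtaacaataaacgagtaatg
XTH19: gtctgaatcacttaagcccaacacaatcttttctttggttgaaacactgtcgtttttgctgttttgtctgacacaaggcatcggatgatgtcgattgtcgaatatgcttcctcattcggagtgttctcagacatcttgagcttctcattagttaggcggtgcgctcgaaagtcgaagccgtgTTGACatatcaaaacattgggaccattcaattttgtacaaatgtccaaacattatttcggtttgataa
These windows are chr1:24256804-24257053 on the plus strand, chr4:14827212-14827461 on the minus strand and chr4:14830225-14830474 on the minus strand, in RefSeq TAIR10.1. The last 73 bases of XTH17 and XTH18 before the start were identical, and 84 of the last 90. Counted backward from the start, with the XTH18 base first and the XTH17 base last, the differences in those 90 bases were C74T, A82G, A87C, G88T, T89A and T90C. The rapid stress response element of XTH18 begins 76 bases before the start and C74T lies in it, so XTH17 lacks those letters there. The element was in 2.82% of the windows of all tested genes, in 3 of 20 expansins (EXPA6, EXLA1 and EXLA3) and in 2 of 23 XTHs (XTH18 and XTH20). The W-box core begins 102 bases before the start of XTH18 and 68 before that of XTH19, and XTH17 has none in its window. XTH19 shared 22 of the last 90 bases with XTH17. How these letters bear on the transcript levels was not tested.

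XTH24, XTH25, XTH28 and XTH30 rose with log2 fold changes of 0.52 to 1.29 over both comparisons. XTH24, also known as MERI5, had the highest mean level per kb of the family in ceh1/eds16 and in ceh1 and averaged 1723 ± 109 in ceh1/eds16, 2188 ± 735 in ceh1, 926 ± 60.7 in eds16, and 1221 ± 113 in Col-0. XTH25 averaged 119 ± 42.1 in ceh1/eds16, 189 ± 44.8 in ceh1, 48.5 ± 20.2 in eds16, and 87.7 ± 14.1 in Col-0, and XTH28, a gene of stamen filament growth, averaged 657 ± 34.6 in ceh1/eds16, 537 ± 65.01 in ceh1, 376 ± 36.5 in eds16, and 373 ± 47.3 in Col-0. XTH30 averaged 138 ± 40.7 in ceh1/eds16, 102 ± 17.2 in ceh1, 70.2 ± 16.9 in eds16, and 52.4 ± 6.74 in Col-0. XTH16 averaged 199 ± 49.9 in ceh1/eds16, 231 ± 26.9 in ceh1, 229.9 ± 32.2 in eds16, and 167 ± 31.2 in Col-0, and its higher call in ceh1 against Col-0 (0.47 ± 0.18 (SE; adjusted p = 0.0394)) was lost without ceh1 replicate 2 (0.43, adjusted p = 0.117), ceh1 replicate 3 (0.42, 0.107), Col-0 replicate 2 (0.35, 0.168) or Col-0 replicate 3 (0.46, 0.0889), and with edgeR (0.44, 0.0538), equal upper quartiles (0.42, 0.0679) or no floor (0.47, 0.0545). Without ceh1/eds16 replicate 3 it was called lower in ceh1/eds16 against eds16 (-0.42, 0.0464).

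Several of the XTHs that rose are neighbours in the genome. XTH24, XTH18 and XTH19 follow each other on the minus strand of chromosome 4, with gaps of 5161 and 1500 bp. XTH25 and XTH22 lie 565 bp apart on the minus strand of chromosome 5, next to XTH13 and XTH12, which are family loci outside the 43 and had 0 reads. XTH23 is followed after 363 bp by XTH14, also outside the 43, which reached 0.889 normalized counts in its highest library.

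**Figure D3:**
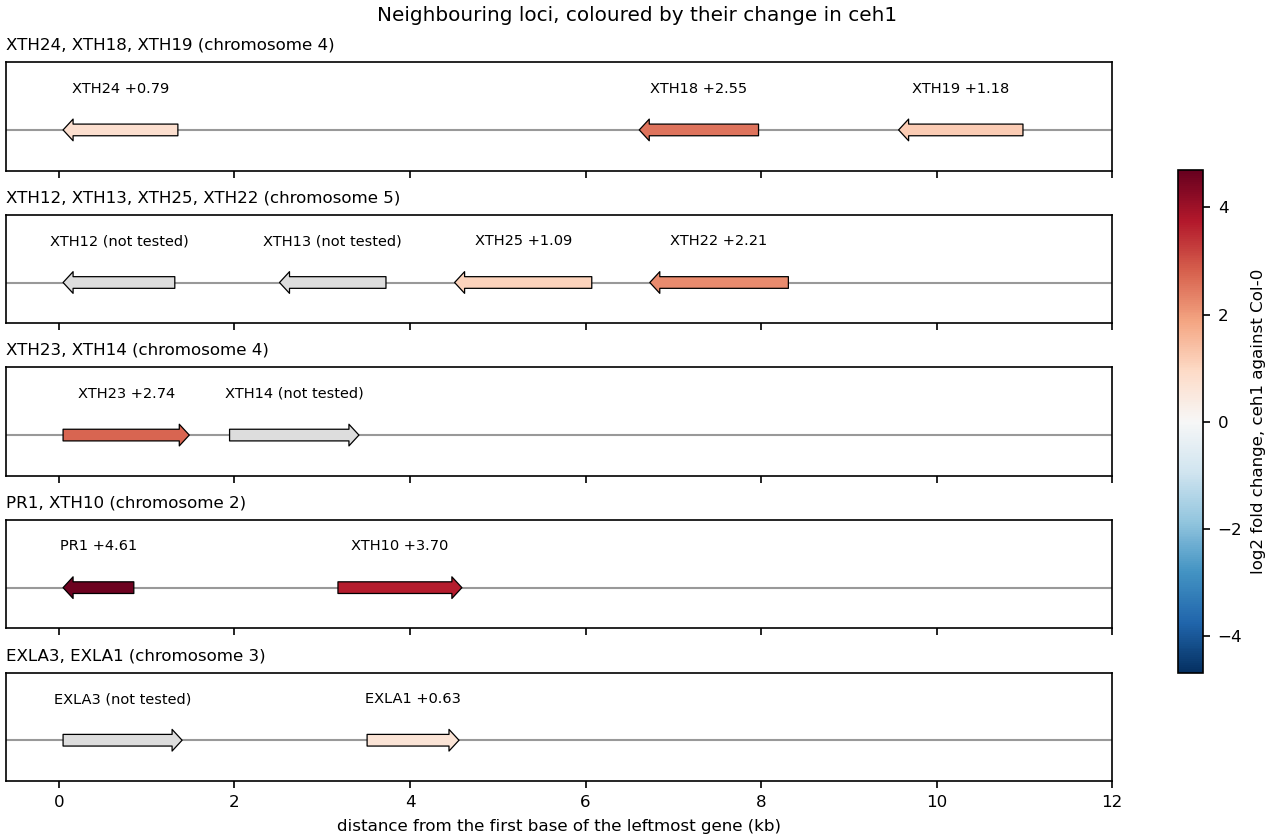
Maps of 5 groups of neighbouring loci, drawn to scale in kb from the first base of the leftmost gene, with arrows in the direction of transcription and colours and numbers for the log2 fold change in ceh1 against Col-0. XTH24, XTH18 and XTH19 are all above 0 and so are XTH25 and XTH22, PR1 and XTH10 are the reddest pair, and grey genes were not tested.

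XTH10 (AT2G14620, chromosome 2, 6244772 to 6246279) was the member with the largest difference between its ceh1 effects without and with ICS1. Its normalized counts were 27.6, 5.39 and 19.5 in ceh1/eds16, 134, 133 and 131 in ceh1, 9.60, 10.6 and 6.22 in eds16, against 7.13, 14.3 and 7.73 in Col-0. The 3 ceh1 libraries stood above all 9 others, and those of ceh1/eds16 overlapped those of eds16. The log2 fold change was 3.70 ± 0.43 (SE; adjusted p = 2.58e-06) in ceh1 against Col-0, a 13.7-fold higher mean, and 0.69 ± 0.43 (SE; adjusted p = 0.209) in ceh1/eds16 against eds16. The difference between these effects was -3.01 ± 0.61 (SE; adjusted p = 0.00924). In ceh1/eds16 against ceh1 XTH10 fell, with -3.10 ± 0.43 (SE; adjusted p = 0.000146) on the log2 scale. Without ceh1/eds16 replicate 2, its lowest library, XTH10 was called higher in ceh1/eds16 against eds16 as well (1.33, adjusted p = 0.00358), and the difference was then -2.37.

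XTH10 stands head to head with PR1, the salicylic acid marker gene, with 2230 bp and no annotated gene between their starts. PR1 had 105, 59.3 and 92.7 in ceh1/eds16, 8934, 8031 and 5199.5 in ceh1, 40.3, 53.2 and 36.3 in eds16, against 181, 409 and 343 in Col-0. It was chosen for its place beside XTH10, with its values known, and both genes were highest in ceh1. PR1 was called lower in eds16 against Col-0, -2.75 (adjusted p = 2.24e-05), and called higher in ceh1/eds16 against eds16, 0.95 (adjusted p = 0.0102). XTH10 had -0.09 in eds16 against Col-0, which was not called (adjusted p = 0.926).

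XTH7 and XTH32 fell in both comparisons, and fell further where ICS1 was lost. XTH7 (AT4G37800, chromosome 4, 17775370 to 17777445) had 322, 312 and 387 in ceh1/eds16, 564, 517 and 540.3 in ceh1, 1600.5, 1445 and 1535 in eds16, against 937, 1037 and 1122 in Col-0. The 4 genotypes did not overlap, and eds16 was the highest and ceh1/eds16 the lowest. Its log2 fold change was -2.17 ± 0.12 (SE; adjusted p = 2.06e-10) in ceh1/eds16 against eds16 and -0.93 ± 0.12 (SE; adjusted p = 5.58e-06) in ceh1 against Col-0, and the difference was -1.24 ± 0.16 (SE; adjusted p = 0.00043). XTH32 (AT2G36870, chromosome 2, 15472607 to 15474828), in the same subgroup of the family as XTH31, had 73.8, 61.5 and 59.6 in ceh1/eds16, 133, 135 and 115 in ceh1, 352, 378 and 306 in eds16, against 347, 296 and 335 in Col-0. Levels in eds16 and Col-0 overlapped, and ceh1/eds16 lay below ceh1. The log2 fold change was -2.39 (adjusted p = 5.93e-10) without ICS1 and -1.35 (adjusted p = 8.25e-07) with it, and the difference was -1.05 ± 0.20 (SE; adjusted p = 0.00618).

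These 3 XTHs were the members called in the test of the difference, all with a negative difference, where 4.87% of all genes were called, 3.08% higher and 1.79% lower. No listed expansin was called there by limma or edgeR, and 0 had an unadjusted p under 0.05. All 3 XTHs held when any one library was left out, with differences of -1.34 to -1.17 for XTH7, -3.45 to -2.37 for XTH10 and -1.14 to -0.98 for XTH32 and a largest adjusted p of 0.0329. Without ceh1/eds16 replicate 3 there were 6, with XTH9 (-0.59), XTH15 and XTH16 (-0.89) added, and without ceh1 replicate 3 there was also XTH22 (0.94, adjusted p = 0.0241).

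**Figure D4:**
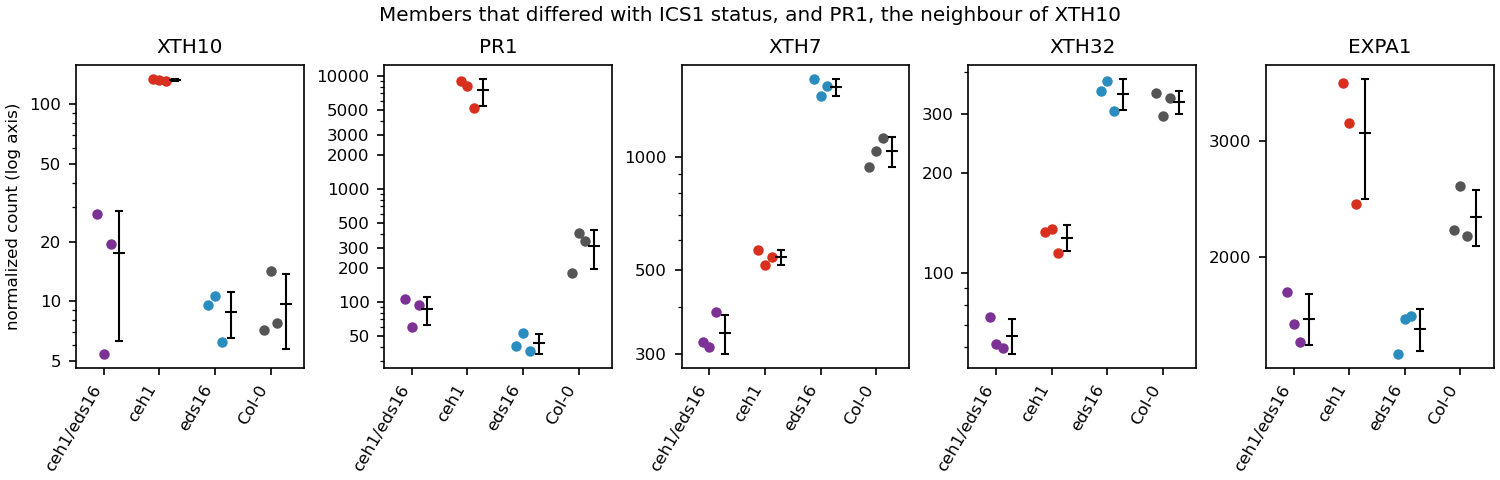
Normalized count, on a log axis, of XTH10, its neighbour PR1, XTH7, XTH32 and EXPA1 in each library (points), with the mean and SD of the 3 libraries beside them, in ceh1/eds16, ceh1, eds16 and Col-0 from left to right. XTH10 stands at 131 to 134 in ceh1 and at or below 27.6 elsewhere, while XTH7 and XTH32 are lowest in ceh1/eds16.

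The calls for loss of ICS1 alone depended on single libraries. In eds16 against Col-0, 5 of 38 members were called, 2 higher and 3 lower, where 4.6% of all genes were, 1.63% higher and 2.96% lower. EXPA1 (-0.57 (adjusted p = 0.0314)), EXPA8 (-0.55 (adjusted p = 0.0335)) and EXPA11 (-0.58 (adjusted p = 0.0422)) fell, and XTH7 (0.57 (adjusted p = 0.0104)) and XTH31 (1.01 (adjusted p = 0.0348)) rose. The number of calls was 0 without eds16 replicate 1, Col-0 replicate 1 or Col-0 replicate 2, 1 without Col-0 replicate 3, 2 without eds16 replicate 2, 3 without ceh1 replicate 1 and 7 without ceh1/eds16 replicate 3, the last with XTH9 and XTH25 added.

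With ceh1 present, 6 expansins were called lower on loss of ICS1, and some of these calls depended on the setting. In ceh1/eds16 against ceh1, 10 of 38 members were called, 1 higher and 9 lower, where 10.2% of all genes were, 5.93% higher and 4.24% lower. The expansins were EXPA1 (-0.92 (adjusted p = 0.000398)), EXPA5 (-0.46 (adjusted p = 0.0483)), EXPA6 (-0.50 (adjusted p = 0.00553)), EXPA8 (-0.68 (adjusted p = 0.00417)), EXPA11 (-0.60 (adjusted p = 0.0181)) and EXPB1 (-1.34 (adjusted p = 0.00389)). XTH7 (-0.67 (adjusted p = 0.000963)), XTH10 and XTH32 (-0.97 (adjusted p = 0.000238)) fell and XTH22 (0.73 (adjusted p = 0.0485)) rose. The median log2 fold change was -0.32 for the expansins, 0.02 for the XTHs and -0.01 for all genes. With the libraries left out in turn the number was 7 to 14, with 14 without ceh1/eds16 replicate 3. EXPA5 was lost without any one of 9 libraries, with an adjusted p of up to 0.27 (without ceh1 replicate 1), and XTH22 without any one of 11, with up to 0.265 (also without ceh1 replicate 1). The XTH22 call was also lost with edgeR (0.65, adjusted p = 0.0666) and with only ceh1/eds16 and ceh1 in the fit (0.73, 0.149). Equal library totals (0.64, adjusted p = 0.0763), no floor (0.73, 0.0726) and a pseudocount of 0.5 (0.73, 0.0502) lost it too. EXPA11 was lost without ceh1 replicate 1 (adjusted p = 0.0879) or ceh1/eds16 replicate 1 (0.053). With only ceh1/eds16 and ceh1 in the fit, EXPA5 (adjusted p = 0.121), EXPA11 (0.0532) and EXPB1 (0.0563) were not called. EXPA5 was also lost with no floor (0.0637) and with the replicate block (0.0834). EXPB1 had 5, 2 and 6 reads in ceh1/eds16 and 28, 15 and 13 in ceh1. It reached the floor through eds16 (mean 63.3) and Col-0 (mean 106).

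The balance between the families was read from sums of normalized counts per kb of mature transcript, which allow levels of different genes to be added. The 20 expansins summed to 2775 ± 72.5 in ceh1/eds16, 4204 ± 415 in ceh1, 3663 ± 168 in eds16, and 4685 ± 242 in Col-0 (SD, n = 3 each). The 23 XTHs summed to 7468 ± 905 in ceh1/eds16, 7490 ± 1328 in ceh1, 9021 ± 164 in eds16, and 8336 ± 214 in Col-0. XTHs thus held 70.4% to 74.8% of both sums in ceh1/eds16, 58.6% to 70.2% in ceh1, 70.0% to 72.1% in eds16, and 63.3% to 64.6% in Col-0. The sums of the listed expansins in ceh1/eds16 lay below those of the other genotypes in every library. The XTH sums of ceh1 overlapped those of every other genotype. EXLB3, an expansin locus outside the 43, is in none of these sums or shares. Its mean normalized count was 1123 in ceh1/eds16, 1291 in ceh1, 30.6 in eds16 and 94.6 in Col-0. The order of the genotypes and the shares therefore hold for the listed loci only. No test was made on these sums.

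EXPA1 led the 20 listed expansins in every library, with 39.8% of their sum in ceh1/eds16, 50.3% in ceh1, 29.1% in eds16 and 33.7% in Col-0. By genotype mean XTH24 led the XTHs in ceh1/eds16 with 19.1%, close to XTH9 with 18.1%, and in ceh1 with 24.2%, against 18.1% for XTH9. In ceh1/eds16 replicate 3 and ceh1 replicate 1 the leader was XTH9. XTH6 led in all libraries of eds16 and Col-0, with means of 21.5% in eds16 and 19.9% in Col-0. XTH22 ranked 4 among the XTHs in ceh1/eds16, at 1120 ± 149.9 per kb, and in ceh1, at 714 ± 331 per kb, and it was not among the first 5 in eds16 or Col-0.

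**Figure D5:**
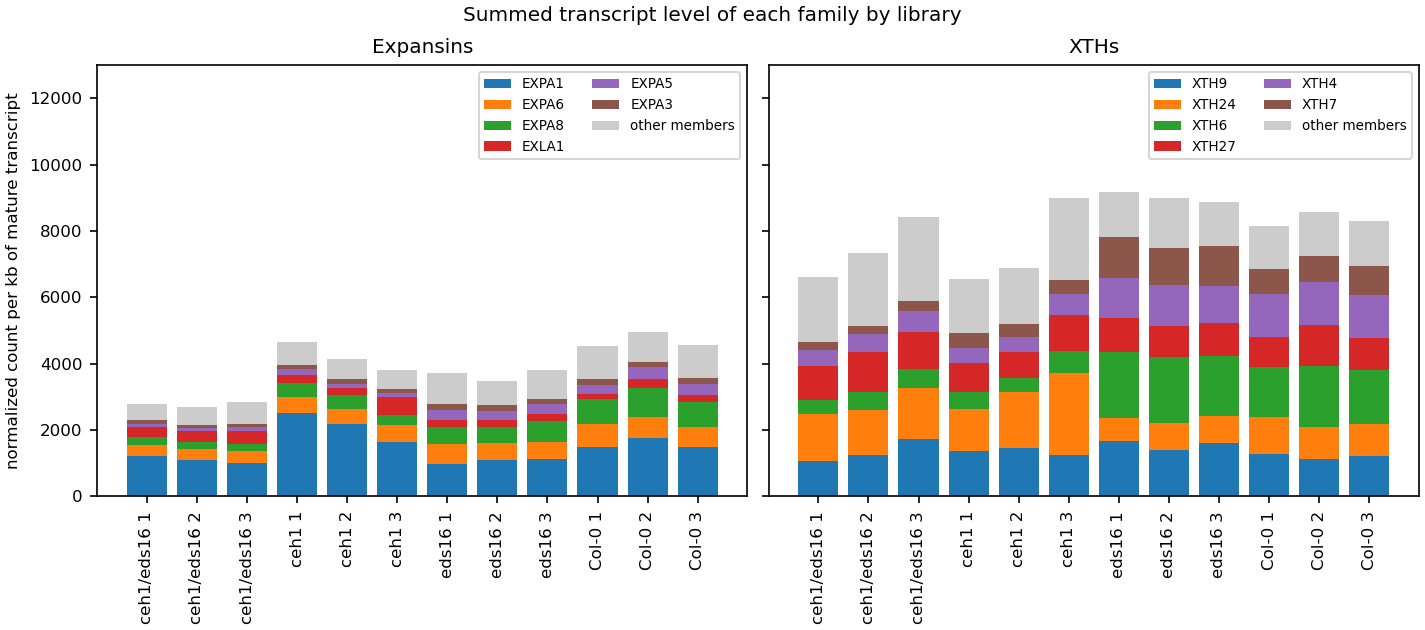
Summed level of the 20 expansins (left) and of the 23 XTHs (right) in each library, in normalized counts per kb of mature transcript, with the 6 genes of highest mean level in colour and the other members in grey. The expansin bars of ceh1/eds16 are the lowest, and in the XTH bars the share of XTH6, XTH4 and XTH7 is smaller and that of XTH24 larger with ceh1 than without it.

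Other genes of xyloglucan and wall growth were counted for comparison, where 22.1% of all genes were called higher and 20.2% lower in ceh1/eds16 against eds16, and 25.2% higher and 25% lower in ceh1 against Col-0. Of 14 genes of xyloglucan synthesis, 2 rose and 5 fell in ceh1/eds16 against eds16, and 8 fell in ceh1 against Col-0. The 3 genes that trim xyloglucan in the wall fell in ceh1 against Col-0, and without ICS1 XYL1 and AXY8 fell while BGAL10 rose (0.85 (adjusted p = 0.000142)). Of 4 endoglucanases, 3 fell in ceh1/eds16 against eds16 and 4 in ceh1 against Col-0, the cellulose synthesis gene KOR1 among them. The proton pumps that acidify the wall had 2 of 4 lower in ceh1/eds16 against eds16 and 3 of 4 in ceh1 against Col-0; AHA3 averaged 943 ± 231 in ceh1/eds16, 906 ± 215 in ceh1, 2395 ± 34.8 in eds16, and 2692 ± 131 in Col-0, and AHA1 was not called in either, at 5938 ± 928 in ceh1/eds16, 4556 ± 275 in ceh1, 5332 ± 496 in eds16, and 5543 ± 693 in Col-0.

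Lists of growth regulators and cell markers stand beside the same shares of all genes. All 6 growth-linked SAUR genes, small proteins that raise proton pump activity, fell in both comparisons, with a median log2 fold change of -2.36 in ceh1/eds16 against eds16 and -1.45 in ceh1 against Col-0. Some of them reached the floor through the groups without ceh1. SAUR22 averaged 2.97 in ceh1/eds16 and 6.35 in ceh1, against 36.9 in eds16 and 44.8 in Col-0. Whether reads were shared among the 6 was not checked, so they may not be 6 separate results. Of 10 genes of brassinosteroid action and growth control, 6 fell in ceh1/eds16 against eds16 and 8 in ceh1 against Col-0. These genes do not all act on growth in the same direction, so the counts do not measure growth promotion. The log2 fold change of the growth-promoting factor HBI1 was -0.66 and -0.35, and that of the brassinosteroid synthesis gene CPD -0.64 and -0.99. Markers of dividing cells had 1 of 6 lower in ceh1/eds16 against eds16 and 4 of 6 higher in ceh1 against Col-0. Guard cell markers had 1 of 5 in each direction without ICS1 and 1 of 5 lower with it, the lower one being the potassium channel gene KAT1 in both.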

How the data were processed

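RNA-seq of polyadenylated RNA from Arabidopsis rosettes was taken from the table that the authors deposited, which holds 1 signal value per gene and library: read counts divided by a size factor per library. Per the submitters' processing notes TopHat2, DESeq2 and the build TAIR10 were used; for versions, counting tool, read length and strandedness, nothing is stated in the sources used here. Every value in each library was a whole multiple of 1 step (100% whole within 0.01), so whole reads were recovered for an alternative test with edgeR 4.0.16. All columns of the table were of this study.

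A gene was tested if its normalized count averaged 10 or more; the test was made with limma 3.58.1 (trend) in R 4.3.3 on log2(normalized count + 1), which understates the fold changes of low genes. All 12 libraries were in 1 model of 4 genotype means (residual degrees of freedom 8, prior 8.69). Tests were two-sided with Benjamini-Hochberg adjustment over all genes tested, and called means an adjusted p under 0.05. The 5 comparisons were ceh1/eds16 with eds16, ceh1 with Col-0, the first minus the second (the difference between the effects), ceh1/eds16 with ceh1, and eds16 with Col-0. Comparisons that share a genotype share its libraries. The design text calls the libraries biological replicates, and p-values measure the spread between them.

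The 43 members, the wall and marker lists and the tests were chosen with earlier results of these data known. Values in every library are given for the 6 called members of each family with the largest change in ceh1/eds16 against eds16 and in ceh1 against Col-0 and for members called in the other comparisons, and also for EXLA1; the rest are given as means or counts. Of each other list up to 4 genes were named, from those with the highest mean. Exceptions were EXPA7, a root marker at 0, and genes named because they reached the floor through the groups without ceh1. PR1 was added as the neighbour of XTH10. Coordinates and sequences are from the RefSeq annotation of TAIR10.1, matched by locus, and 39 of 43 members had the same symbol there. The script was tested on simulated counts with 200 changed genes. Depth was 4986863 to 18081979 reads per library, which limits the precision for members with few reads.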

Additional observations from a re-analysis of the deposited data

Results flagged for a closer look

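Members whose ceh1 effect differed between plants without and with ICS1 were 3 XTHs, by the interaction term of the limma fit. The difference (effect without ICS1 minus effect with it, log2 scale) was -3.01 for XTH10, -1.24 for XTH7 and -1.05 for XTH32. XTH10 was higher in ceh1 in all 3 libraries than in any other genotype, whereas XTH7 and XTH32 were lower in both comparisons and fell further without ICS1. Without ceh1/eds16 replicate 3, the library that stood apart, the differences were -3.21, -1.34 and -0.99 in the same order of genes.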

How the results depend on the processing

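Of 72 called results of single members, recomputed under 21 settings, 1391 of 1492 values kept their direction and call, 101 lost the call and 0 changed sign. The counts of expansins called lower and of XTHs in each direction stayed within 1.5 times in all settings, which were other pseudocounts (0.5 and 5), another floor (50) or none, other scalings, fewer groups, the replicate block, edgeR and each library left out. At the floor of 50 some members with large changes were not tested, EXPB1, XTH10, XTH15, XTH17, XTH18 and XTH19 among them. Their results under that setting are absent from the 1492 values and do not count as lost calls. The single expansin called higher in ceh1 against Col-0 became 2 with no floor, 0 with equal upper quartiles, 4 with equal library totals, 2 with only the groups compared and 2 with edgeR, and 0 to 2 with each library left out. In ceh1/eds16 against eds16 the count of 0 became 1 with no floor, with equal library totals and with only the groups compared, and 0 to 1 with each library left out. For eds16 against Col-0 the 5 members became 2 with no floor, 3 with equal library totals and 10 with only the groups compared, and 0 to 7 with each library left out; for ceh1/eds16 against ceh1 the 10 became 6 with only the groups compared and 7 to 14 with each library left out. The 3 members called for the difference became 6 without ceh1/eds16 replicate 3. Leaving out libraries gave 8 to 9 and 9 expansins lower, 9 to 10 and 7 to 9 XTHs higher, and 8 to 9 and 8 to 10 XTHs lower in ceh1 against Col-0 and in ceh1/eds16 against eds16.

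Equal library totals changed the share of higher calls among all calls to 35.9% against 63.3% for the difference and to 38.4% against 58.3% for ceh1/eds16 against ceh1. Genes called in eds16 against Col-0 numbered 299 higher and 542 lower, and 683 and 830 with only those groups in the fit; for the difference they numbered 564 and 327, 392 and 201 with no floor, and 328 and 586 with equal library totals. Leaving out libraries gave 241 to 1684 higher and 105 to 1329 lower for the difference, 67 to 752 and 170 to 1029 in eds16 against Col-0, and 614 to 1706 and 410 to 1541 in ceh1/eds16 against ceh1, with the highest number in each without ceh1/eds16 replicate 3. The causes were not tested. Replicate numbers did not pair the libraries: 1 of 18 correlations of same-numbered libraries exceeded 0.1 (range -0.448 to 0.118) and 4 of 12 libraries were closest to their own number. With the replicate block the expansins called higher in ceh1 against Col-0 were 2 and the members called in eds16 against Col-0 were 3, with all genes at 168 higher and 370 lower there and 366 and 200 for the difference.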

Other observations

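Among 27 further loci that the annotation names as expansins or XTHs and that are not among the 43, 4 passed the floor. EXLB3 (AT2G18660) had normalized counts of 932, 1036 and 1399.9 in ceh1/eds16, 1469.8, 1245 and 1158 in ceh1, 28.8, 27.9 and 35.2 in eds16, against 64.2, 164 and 55.4 in Col-0, with no overlap between libraries with and without ceh1. It was picked out after its values were seen and carries no test here. XTH29 averaged 15.2 ± 6.87 in ceh1/eds16, 24.8 ± 9.10 in ceh1, 2.49 ± 2.34 in eds16, and 2.44 ± 1.20 in Col-0. XTH11 averaged 14.4 ± 3.72 in ceh1/eds16, 26.2 ± 4.94 in ceh1, 6.78 ± 2.31 in eds16, and 12.1 ± 2.36 in Col-0. EXPA13 averaged 73.4 ± 18.3 in ceh1/eds16, 90.5 ± 2.51 in ceh1, 115 ± 7.26 in eds16, and 118 ± 4.47 in Col-0.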
